A study of Arabidopsis thaliana with 4 samples.

Results

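The nuclear genes of the photosynthetic light reactions and of the Rubisco small subunit were followed in Arabidopsis thaliana seedlings of 3 genotypes. They were taken by gene identifier from a fixed set of 44 loci, all of which are present among the 33557 genes of both tables. The set holds 4 genes of the antenna of photosystem I (LHCA1 to LHCA4), 9 of the main antenna of photosystem II (LHCB1, LHCB2 and LHCB3), 5 of its minor antenna (LHCB4 to LHCB6), 12 photosystem I subunits, 10 photosystem II subunits and 4 Rubisco small subunits. The series measured RNA by sequencing in whole seedlings of the mutants hdp3-2 and asil1-2, 14 days old, with 2 libraries per mutant, against the wild-type strain Col-0. It asks whether HDP3, a protein derived from a Harbinger transposase, and ASIL1, a trihelix DNA-binding factor, act on overlapping genes. The mutants are in the Col-0 background and were grown on agar plates with 2% sucrose at 22 °C, with 16 h of light a day. Growth followed stratification, a cold treatment of seeds, for 3 days at 4 °C. The labels do not describe the lesion in either allele, and no label used here covers the Col-0 plants, whose data come from another series. Every difference between a mutant and Col-0 is thus also one between series, and these cannot be told apart here.

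The authors gave 1 FPKM value (fragments normalised to transcript length and sequencing depth) per gene and genotype, so no spread between libraries can be shown and the depth is unknown. Each table holds its own Col-0 column. That of the hdp3-2 table was 0.982 times that of the asil1-2 table, and all 44 members lay within 0.1% of this ratio, so each mutant is set beside the Col-0 value of its own table. "Rose" and "fell" are used for genes with a q, the authors' p after correction for all tested genes, under 0.05. Each log2 fold change was divided by the deposited test statistic to give its standard error (SE). ASIL1 (AT1G54060) was at 4.16 FPKM in asil1-2 and 22.9 FPKM in Col-0, a 5.50-fold lower level in that mutant. The HDP3 locus is not named in the tables, and no such check was made for hdp3-2. Nothing says that the libraries of a mutant came from separate plantings, so the spread behind the p-values may be technical.

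In green tissue, chlorophyll bound to antenna proteins gathers light and passes the energy to the reaction centres of the photosystems, and Rubisco fixes carbon dioxide in the chloroplast stroma. The main core proteins of each photosystem and the large subunit of Rubisco are made from plastid genes. The antenna proteins, many further subunits and the small subunit of Rubisco come from nuclear genes and are imported. The nuclear genes are known as light-responsive, and the GOLDEN2-LIKE factors GLK1 and GLK2 are known activators of antenna and chlorophyll synthesis genes.

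None of the 44 structural genes rose or fell in either mutant. In hdp3-2 the number called by the authors' Cuffdiff test was 0 of 44, where 3.08% of all 20177 tested genes were called, and 3 members had an unadjusted p under 0.05 (12.9% of all tested genes). All 3 had negative values, beside 8.43% of all tested genes that were lower at this p. In asil1-2 it was also 0 of 44, where 8.42% of 20205 tested genes were called, and 2 members had an unadjusted p under 0.05 (20.1% of all). Both had negative values, beside 13.5% of all. A Benjamini-Hochberg adjustment recomputed from the authors' p called 0 members in each comparison. It starts from the same p as the q, so it checks the q and is not separate evidence. The lowest q of any member in the authors' deposited tables was 0.192 in hdp3-2 (LHCB4.3) and 0.206 in asil1-2 (PSBS). Log2 fold changes ran from -0.57 to 0.21 in hdp3-2, with a median of -0.12 beside -0.06 for all tested genes. They ran from -0.40 to 0.28 in asil1-2, with a median of -0.14 beside -0.08. The value was negative for 35 members in hdp3-2, beside 58.7% of all tested genes, and for 29 members in asil1-2, beside 60.3%. These signs depend on the scaling. With each genotype scaled to the summed FPKM of its nuclear genes, the median of the members was -0.66 in hdp3-2 and 0.25 in asil1-2. The medians of all 6 complexes were then positive in asil1-2. In these sums snoRNA and miRNA genes made up 33.2% in Col-0, 56.3% in hdp3-2 and 9.74% in asil1-2. Scaling to tested nuclear protein-coding genes instead, chosen after seeing the data, shifted values by only 0.06 in hdp3-2 and 0.10 in asil1-2.

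The SE of the members had a median of 0.37 in hdp3-2 and 0.29 in asil1-2. A 95% interval built from it lay within a 2-fold change in either direction for 30 of 44 members in hdp3-2. In asil1-2 this held for 43 of 44, LHCA4 being the exception with a lower bound of -1.03. The authors' p implies a z that was 1.42 times their statistic in both tables at the median over members, so an SE behind p would be smaller for most members.

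**Figure D1:**
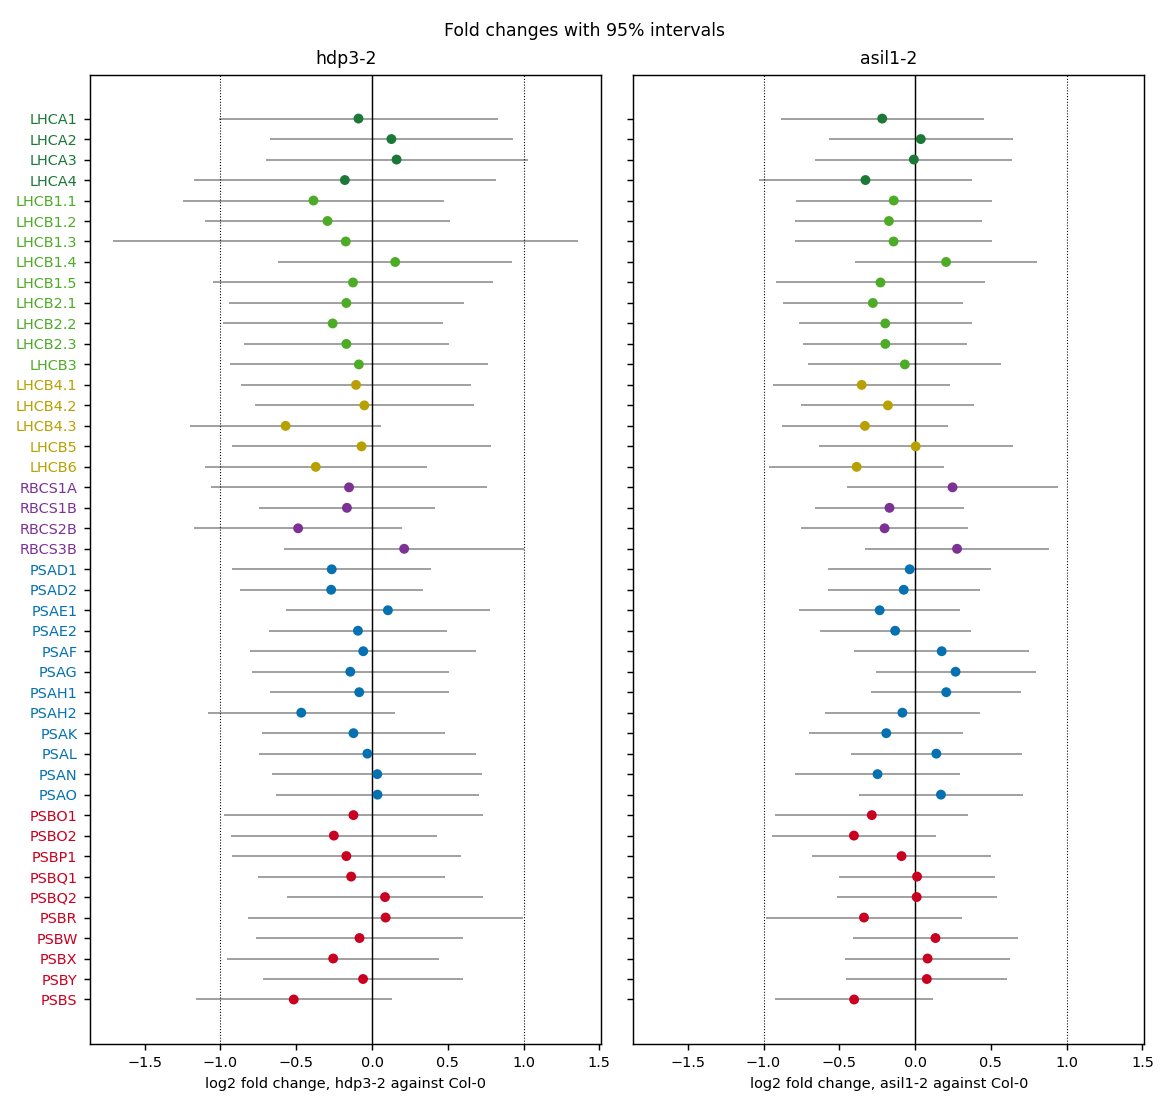
Log2 fold change of each of the 44 genes (points, coloured by complex) with its 95% interval (bars, from the SE) in hdp3-2 and asil1-2 against Col-0; dotted lines mark a 2-fold change. Every interval from this SE crosses 0, that of LHCB1.3 in hdp3-2 is the widest, and 43 of 44 intervals in asil1-2 stay between the dotted lines. An SE behind the authors' p would be smaller for most members. By that p, from Cuffdiff, 3 members in hdp3-2 and 2 in asil1-2 were under 0.05 before adjustment.

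The members are among the most abundant nuclear messages of the seedling, and as markers of green tissue they were present in all 3 genotypes. In Col-0 their levels summed to 221774 FPKM in the hdp3-2 table, which is 23.2% of the summed FPKM of tested nuclear protein-coding genes. The share was 22.4% in hdp3-2, and in the asil1-2 table it was 23.2% in Col-0 and 23.2% in asil1-2. LHCB1.3 and PSBR ranked 1 and 2 among all nuclear protein-coding genes in Col-0, and 42 of the 44 members lay at 1000 FPKM or above. The exceptions were RBCS1B and LHCB4.3.

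**Figure D2:**
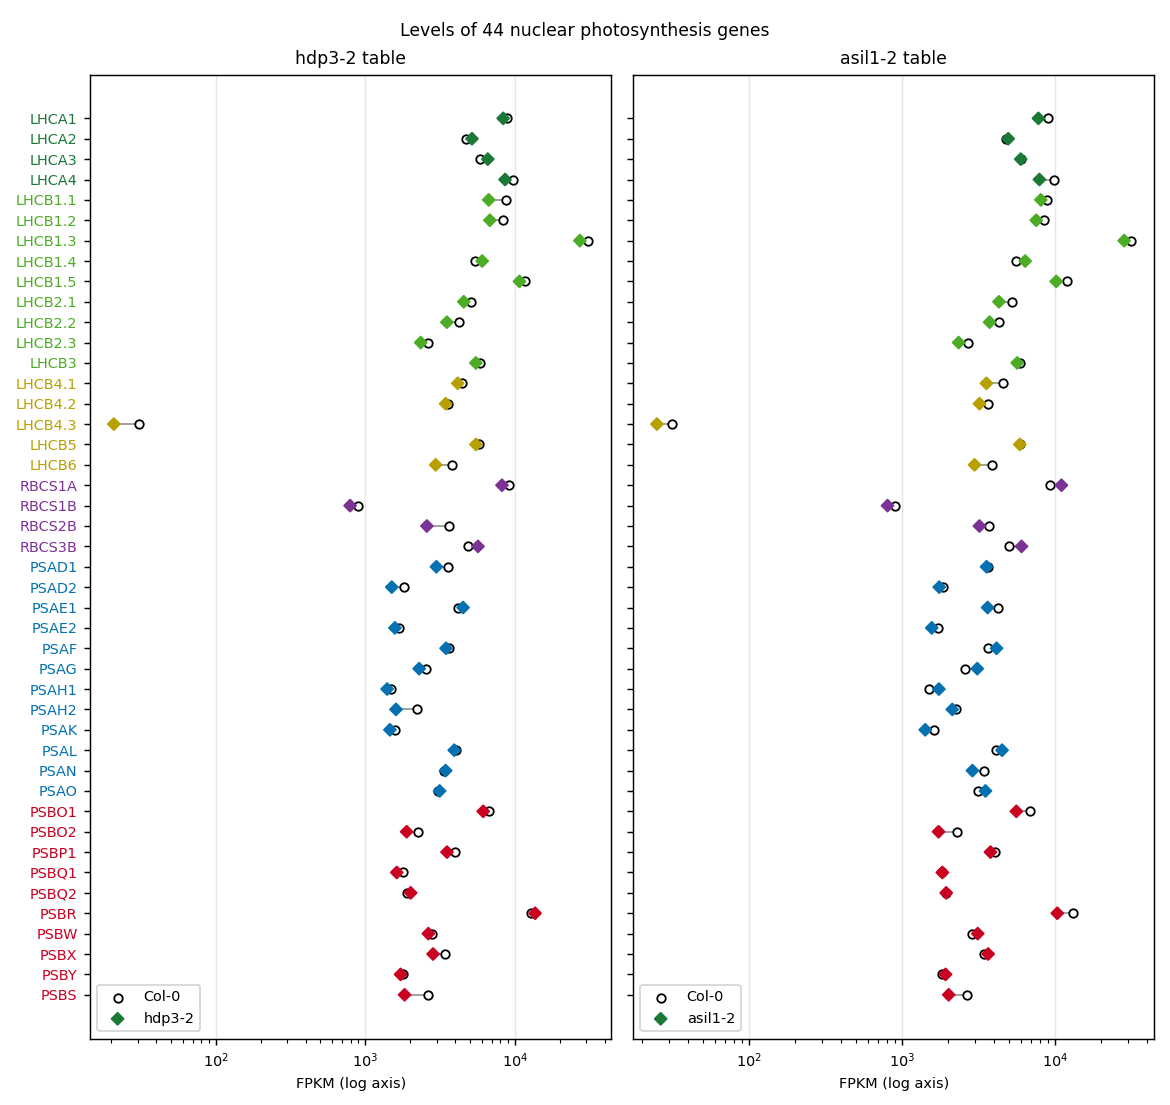
Authors' FPKM value of each member (log axis) in Col-0 (open circles) and in the mutant (diamonds, coloured by complex), in the hdp3-2 table and the asil1-2 table. Mutant and Col-0 symbols lie close together for all 44 genes, from LHCB4.3 at 30.9 FPKM to LHCB1.3 at 30753 FPKM in Col-0.

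Among the genes of the photosystem I antenna, LHCA4 and LHCA1 had the highest levels and LHCA2 the lowest. LHCA4 (AT3G47470) was at 9765 FPKM in Col-0 and 8624 FPKM in hdp3-2, and at 9949 FPKM in Col-0 and 7927 FPKM in asil1-2. Its log2 fold changes were -0.18 ± 0.51 (SE) and -0.33 ± 0.36. LHCA4 and LHCA1 together form one of the antenna dimers, and LHCA2 and LHCA3 the other. LHCA3 (AT1G61520) had the highest value of the complex in hdp3-2, at 5906 FPKM in Col-0 and 6608 FPKM in the mutant, and LHCA2 (AT3G61470) in asil1-2, at 4831 and 4957 FPKM. These correspond to 0.16 ± 0.44 and 0.04 ± 0.31 on the log2 scale. The median of the 4 genes was 0.02 in hdp3-2 and -0.11 in asil1-2.

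The LHCB1 genes encode the most abundant antenna protein, and their copies can be hard to tell apart in short reads. LHCB1.1, LHCB1.2 and LHCB1.3 lie side by side on chromosome 1, in TAIR10 from 10472280 (start of LHCB1.2) to 10479048 (end of LHCB1.3). Their coding sequences have 804 bases each and are 95.7% to 96.4% identical, with identical runs of up to 119 bases. The first 150 coding bases of these 3 copies are shown because they let a reader see how few positions set the copies apart. They are read on the coding strand from the RefSeq annotation of TAIR10.1, and capitals mark the positions where the copies differ.
LHCB1.1: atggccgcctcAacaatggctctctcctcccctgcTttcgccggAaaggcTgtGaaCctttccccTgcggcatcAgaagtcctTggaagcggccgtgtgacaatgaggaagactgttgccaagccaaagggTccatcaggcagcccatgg
LHCB1.2: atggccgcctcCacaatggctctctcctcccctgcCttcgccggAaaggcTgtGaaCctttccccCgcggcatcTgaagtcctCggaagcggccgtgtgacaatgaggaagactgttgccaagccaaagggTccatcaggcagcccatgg
LHCB1.3: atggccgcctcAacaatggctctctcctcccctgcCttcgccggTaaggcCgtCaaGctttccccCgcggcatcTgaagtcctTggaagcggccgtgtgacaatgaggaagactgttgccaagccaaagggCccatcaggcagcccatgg

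LHCB1.3 (AT1G29930) alone gave 47.3% of the summed LHCB1 level in Col-0, 47.3% in hdp3-2 and 46.8% in asil1-2. Its level was 30753 FPKM in Col-0 and 27275 FPKM in hdp3-2, a log2 fold change of -0.17 ± 0.78, with the widest interval of all members, from -1.71 to 1.36. In the asil1-2 table it was at 31332 FPKM in Col-0 and 28396 FPKM in asil1-2, or -0.14 ± 0.33. LHCB1.1 (AT1G29920) had the lowest log2 fold change of the main antenna in hdp3-2, -0.39 ± 0.44, from 8764 FPKM in Col-0 to 6705 FPKM. LHCB1.4 (AT2G34430), on chromosome 2, was the single LHCB1 copy with a positive value in hdp3-2 and in asil1-2. It was at 5451 FPKM in Col-0 and 6060 FPKM in hdp3-2, and at 5554 and 6399 FPKM in the asil1-2 table, or 0.15 ± 0.39 and 0.20 ± 0.31 on the log2 scale. Its share of the LHCB1 sum was 8.38% in Col-0 against 10.5% in each mutant, and this share has no error here. The coding sequence of LHCB1.4 is 86.8% to 91.4% identical to those of the other copies, and it shares an identical run of 122 bases with LHCB1.5. How reads were split among the LHCB1 copies was not examined, so their sum is the safer value.

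LHCB2 proteins are the antenna part that moves between the photosystems in state transitions. LHCB2.1 and LHCB2.2, with coding sequences that are 96.6% identical, had -0.17 ± 0.40 and -0.26 ± 0.37 in hdp3-2. In asil1-2 LHCB2.1 (AT2G05100) had the lowest value of the main antenna, -0.28 ± 0.30, from 5231 FPKM in Col-0 to 4311 FPKM. LHCB2.3 (AT3G27690) was the lowest member of this complex in level, at 2644 FPKM in Col-0 and 2351 FPKM in hdp3-2, and at 2693 and 2351 FPKM in the asil1-2 table. LHCB3, which joins LHCB1 and LHCB2 in trimers, had -0.09 ± 0.43 in hdp3-2 and -0.07 ± 0.32 in asil1-2. The 9 genes of the main antenna summed to 82897 FPKM in Col-0 and 73553 FPKM in hdp3-2, and to 84460 and 76742 FPKM in the asil1-2 table. The medians of their log2 fold changes were -0.17 in each mutant, and 8 of 9 values were negative in each comparison. The comparisons share their Col-0 libraries, so these counts are not independent.

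The minor antenna proteins link the LHCB1 and LHCB2 trimers to the core of photosystem II. LHCB5 (AT4G10340) had the highest level, 5776 FPKM in Col-0 and 5506 FPKM in hdp3-2, and 5885 and 5900 FPKM in the asil1-2 table. LHCB4.3 (AT2G40100), on chromosome 2 from 16745653 to 16747400 in TAIR10, is a rare copy of LHCB4 that gave 0.383% of the summed LHCB4 level in Col-0. Its level was 30.9 FPKM in Col-0 and 20.8 FPKM in hdp3-2, and 31.5 FPKM in Col-0 and 25.0 FPKM in asil1-2. The log2 fold change of LHCB4.3 in hdp3-2, -0.57 ± 0.32, was the lowest of all members, with an unadjusted p of 0.0132 and a q of 0.192 in the authors' deposited table. It was -0.33 ± 0.28 in asil1-2. LHCB6 (AT1G15820), the outermost of these proteins, was at 3831 FPKM in Col-0 and 2961 FPKM in hdp3-2, and at 3903 FPKM in Col-0 and 2987 FPKM in asil1-2. Its log2 fold changes were -0.37 ± 0.37 and -0.39 ± 0.29, with a q of 0.635 and 0.276 in the authors' deposited tables. LHCB4.1 and LHCB4.2 had -0.11 ± 0.39 and -0.05 ± 0.37 in hdp3-2 and -0.35 ± 0.30 and -0.18 ± 0.29 in asil1-2. The median of the 5 genes was -0.11 in hdp3-2 and -0.33 in asil1-2, the lowest of the 6 complexes in asil1-2.

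The 12 photosystem I genes had medians of -0.09 in hdp3-2 and -0.06 in asil1-2, and 11 and 12 of their intervals lay within a 2-fold change. PSAE1 (AT4G28750), a subunit on the stromal ridge where ferredoxin docks, had the highest level in Col-0, and PSAH1 (AT3G16140), part of the docking site of LHCB2, the lowest. PSAE1 was at 4197 FPKM in Col-0 and 4513 FPKM in hdp3-2, and at 4276 FPKM in Col-0 and 3636 FPKM in asil1-2. Its log2 fold change of 0.10 ± 0.34 was the highest of the complex in hdp3-2. PSAH1 was at 1486 FPKM in Col-0 and 1402 FPKM in hdp3-2, and at 1514 FPKM in Col-0 and 1746 FPKM in asil1-2. Its copy PSAH2 (AT1G52230) had the lowest value of the complex in hdp3-2, at 2222 FPKM in Col-0 and 1607 FPKM in the mutant. That is -0.47 ± 0.31, with an unadjusted p of 0.0370 and a q of 0.335 in the authors' deposited table, and it was -0.08 ± 0.26 in asil1-2. PSAG (AT1G55670), which helps to bind the antenna, had the highest value in asil1-2, 0.27 ± 0.27, from 2584 FPKM in Col-0 to 3110 FPKM. In hdp3-2 PSAG was at -0.14 ± 0.33. The lowest value in asil1-2 was that of PSAN (AT5G64040), a lumenal subunit where plastocyanin docks, at -0.25 ± 0.28, from 3435 FPKM in Col-0 to 2892 FPKM. PSAD1, PSAD2, PSAE2, PSAF, PSAK, PSAL and PSAO had values within the range set by the genes above.

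The 10 nuclear genes of photosystem II subunits gave medians of -0.13 in hdp3-2 and -0.04 in asil1-2. PSBS (AT1G44575), on chromosome 1 from 16871696 to 16873383 in TAIR10, is the protein that switches the antenna to heat release in excess light. It was at 2624 FPKM in Col-0 and 1834 FPKM in hdp3-2, and at 2673 FPKM in Col-0 and 2023 FPKM in asil1-2. Its log2 fold changes were -0.52 ± 0.33 and -0.40 ± 0.27. The unadjusted p of PSBS was 0.0309 in hdp3-2 and 0.0361 in asil1-2, and the q was 0.303 and 0.206, all from the authors' deposited tables. PSBO2 (AT3G50820), the lesser copy of the protein that stabilises the oxygen-evolving manganese cluster, had an unadjusted p of 0.0391 and a q of 0.215 in asil1-2 in the authors' deposited table. It was at 2297 FPKM in Col-0 and 1737 FPKM in asil1-2, or -0.40 ± 0.28, and at -0.25 ± 0.35 in hdp3-2. The major copy PSBO1 gave 74.8% of the summed PSBO level in Col-0, 76.5% in hdp3-2 and 76.3% in asil1-2. PSBR (AT1G79040), a subunit beside the oxygen-evolving complex, had the highest level of the group, 12864 FPKM in Col-0 and 13687 FPKM in hdp3-2. In the asil1-2 table it was at 13105 FPKM in Col-0 and 10373 FPKM in the mutant, so its log2 fold changes were 0.09 ± 0.46 and -0.34 ± 0.33. PSBQ1 (AT4G21280), a subunit of the oxygen-evolving complex, had the lowest level in Col-0, 1789 FPKM in the hdp3-2 table, with 1626 FPKM in hdp3-2. PSBW (AT2G30570), a small membrane subunit, had the highest value in asil1-2, 0.13 ± 0.28, from 2854 FPKM in Col-0 to 3132 FPKM. PSBP1, PSBQ2, PSBX and PSBY lay between these values.

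The Rubisco small subunit is made from RBCS1A on chromosome 1 and from RBCS1B, RBCS2B and RBCS3B, which lie together on chromosome 5. The copies on chromosome 5 are 96.7% to 97.3% identical over 546 coding bases, and RBCS1B and RBCS3B share an identical run of 233 bases. Their first 150 coding bases are read from the same annotation, with capitals where the 3 copies differ. They are shown because the copies differ more often here than over the rest of the coding sequence.
RBCS1B: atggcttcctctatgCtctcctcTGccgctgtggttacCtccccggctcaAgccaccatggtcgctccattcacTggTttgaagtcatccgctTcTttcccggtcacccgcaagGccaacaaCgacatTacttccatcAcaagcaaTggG
RBCS2B: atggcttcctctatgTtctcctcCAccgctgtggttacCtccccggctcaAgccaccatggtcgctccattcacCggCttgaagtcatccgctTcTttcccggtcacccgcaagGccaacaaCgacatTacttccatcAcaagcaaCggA
RBCS3B: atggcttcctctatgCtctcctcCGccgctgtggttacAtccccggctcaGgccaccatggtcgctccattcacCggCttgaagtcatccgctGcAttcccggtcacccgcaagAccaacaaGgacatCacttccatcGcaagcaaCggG

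RBCS1A (AT1G67090) had the highest level and RBCS1B (AT5G38430) the lowest. RBCS1A was at 9134 FPKM in Col-0 and 8223 FPKM in hdp3-2, and at 9307 FPKM in Col-0 and 11044 FPKM in asil1-2. Its log2 fold changes were -0.15 ± 0.46 and 0.25 ± 0.36. RBCS1B was at 889 FPKM in Col-0 and 793 FPKM in hdp3-2, and at 906 FPKM in Col-0 and 806 FPKM in asil1-2. The neighbours RBCS2B (AT5G38420) and RBCS3B (AT5G38410) had values of opposite sign. RBCS2B was at 3626 FPKM in Col-0 and 2586 FPKM in hdp3-2, or -0.49 ± 0.35, and at 3694 FPKM in Col-0 and 3213 FPKM in asil1-2, or -0.20 ± 0.28. RBCS3B was at 4907 FPKM in Col-0 and 5683 FPKM in hdp3-2, or 0.21 ± 0.40, and at 4999 FPKM in Col-0 and 6057 FPKM in asil1-2, or 0.28 ± 0.31. The share of RBCS2B in the summed RBCS level was 19.5% in Col-0, 15.0% in hdp3-2 and 15.2% in asil1-2, and that of RBCS3B was 26.4%, 32.9% and 28.7%. Near-identical copies can exchange reads, and the part of this in the opposite signs was not tested. The 4 genes summed to 18556 FPKM in Col-0 and 17285 FPKM in hdp3-2, and to 18906 FPKM in Col-0 and 21119 FPKM in asil1-2. The plastid gene of the large subunit, RBCL (ATCG00490), was at 61.4 FPKM in Col-0 and 96.4 FPKM in hdp3-2, and at 62.5 FPKM in Col-0 and 68.5 FPKM in asil1-2. It rose in hdp3-2 by 0.65 ± 0.28 on the log2 scale, with a q of 0.0409 in the authors' deposited table, close to the threshold. How well the libraries captured plastid RNA was not examined, so the RBCL level cannot be compared with those of the RBCS genes.

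**Figure D3:**
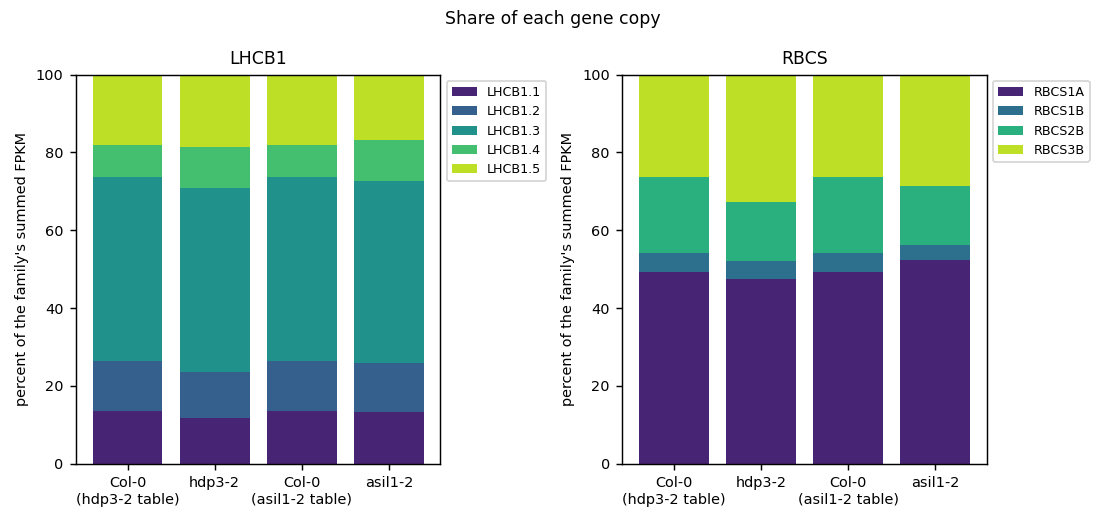
Share of each copy in the summed FPKM of the LHCB1 family (left) and of the RBCS family (right), in Col-0 of each table and in the mutants; bars have no error since there is 1 value per genotype. LHCB1.3 keeps close to 47% in all columns, and RBCS3B goes from 26.4% in Col-0 to 32.9% in hdp3-2.

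Promoters of these genes are known for light-response motifs, so the 250 bases before the gene start were searched on both strands. The motifs were CACGTG (the G-box, bound by factors of light signalling), GATAAG (the I-box, a GATA motif) and GTGATT (a GT motif of the kind that trihelix factors are known to bind), and CACGTG and GTGATT can share bases. Of 44 members, 36 were alone in their locus in the tables, so that their start could be used. GATAAG stood in 21 of 36 member promoters (58.3%), beside 12.8% of 23003 nuclear protein-coding genes. CACGTG stood in 14 (38.9%, beside 7.61%), and GTGATT in 7 (19.4%, beside 15.5%). All 4 RBCS promoters held GATAAG, and 6 of 9 photosystem II promoters held CACGTG. With the RefSeq gene starts, chosen after seeing the data, the shares for the same 36 genes were 22.2% for GATAAG, 16.7% for CACGTG and 11.1% for GTGATT, beside 12.1%, 6.42% and 15.6%. These are matches of letters, and binding was not measured here.

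The RBCS2B promoter is shown because it holds the G-box between GATAAG motifs. It is the part outside annotated transcripts, on the minus strand of TAIR10.1 at chr5:15382072-15382285, with CACGTG and GATAAG of either strand in capitals.
RBCS2B: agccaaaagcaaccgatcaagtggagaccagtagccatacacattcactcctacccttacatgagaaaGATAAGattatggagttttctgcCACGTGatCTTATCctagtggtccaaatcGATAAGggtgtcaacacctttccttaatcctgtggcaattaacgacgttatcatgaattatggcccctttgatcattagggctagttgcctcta
The 30 bases around the G-box of the 3 RBCS genes that have one, with CACGTG in capitals, lie on the minus strand at chr1:25049491-25049520 (RBCS1A), chr5:15382177-15382206 (RBCS2B) and chr5:15378506-15378535 (RBCS3B). They lie before the gene start of the deposited tables, but those of RBCS1A and RBCS3B lie inside the longer RefSeq gene spans.
RBCS1A: ggaattatcttcCACGTGgcattattccag
RBCS2B: ggagttttctgcCACGTGatcttatcctag
RBCS3B: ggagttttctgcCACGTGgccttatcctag

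While the structural genes did not pass the test, several of their known regulators fell. These falls are against Col-0 data from another series, shared by both comparisons, so a mutant effect and a series difference cannot be told apart. Of 12 genes for antenna regulators, kinases and import, all tested, 3 fell in hdp3-2 (1.78% of all tested genes fell) and 4 fell in asil1-2 (5.72% of all), and 0 rose in either by the authors' test. GLK1 (AT2G20570) was at 77.5 FPKM in Col-0 and 35.9 FPKM in hdp3-2, and at 78.9 FPKM in Col-0 and 38.2 FPKM in asil1-2. It fell by 1.11 ± 0.28 and by 1.05 ± 0.24 on the log2 scale, with a q of 0.00374 and 0.00165 in the authors' deposited tables. Its partner GLK2 (AT5G44190) was at 196 FPKM in Col-0 and 124 FPKM in hdp3-2, and at 101 FPKM in asil1-2, 1.97-fold below Col-0 of that table. GLK2 fell by 0.66 ± 0.28 and by 0.98 ± 0.24, with a q of 0.0420 in the authors' deposited table for hdp3-2, close to the threshold. CGA1 (AT4G26150), a GATA factor that promotes chlorophyll synthesis, was at 19.2 FPKM in Col-0 and 9.19 FPKM in hdp3-2, and at 19.6 FPKM in Col-0 and 6.03 FPKM in asil1-2. CGA1 fell by 1.06 ± 0.32 and by 1.70 ± 0.30. The related GATA factor GNC (AT5G56860) fell in asil1-2, from 33.5 FPKM in Col-0 to 14.1 FPKM, by 1.25 ± 0.26, and was at -0.50 ± 0.29 in hdp3-2 (q = 0.203 in the authors' deposited table). The z test gave no call for the difference between the mutants in GNC, 0.75 in log2 with a 95% interval from -0.0054 to 1.51. The unadjusted p of this z test was 0.0517 and the adjusted p 0.9999. It rests on the SE from the deposited statistic, and with a smaller SE the interval could exclude 0. The kinases of antenna phosphorylation and the import factors had no call, with STN7 at -0.12 ± 0.28 and -0.46 ± 0.24 as the kinase with the lower value in asil1-2.

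Relatives of the antenna proteins that are rare or stress-related also fell in part. Of 7 such genes, 1 fell in hdp3-2 (1.78% of all tested genes fell) and 4 in asil1-2 (5.72% of all). ELIP2 (AT4G14690), an early light-induced protein that binds pigment under light stress, fell from 28.1 FPKM in Col-0 to 14.2 FPKM in hdp3-2, by 0.98 ± 0.36. In asil1-2 it fell from 28.6 FPKM to 11.6 FPKM, a 2.46-fold lower level. ELIP1 (AT3G22840) fell in asil1-2 by 1.24 ± 0.32 and was at -0.80 ± 0.35 in hdp3-2, with a q of 0.0533 in the authors' deposited table, just above the threshold. LHCB7 (AT1G76570) and LHCA6 (AT1G19150) fell in asil1-2 by 0.70 ± 0.28 and 0.50 ± 0.24.

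Chlorophyll synthesis showed a few lower genes among 13 tested, 1 in hdp3-2 and 3 in asil1-2, where 1.78% and 5.72% of all tested genes fell. CAO (AT1G44446), the oxygenase that makes the chlorophyll b of the antenna, was at 263 FPKM in Col-0 and 156 FPKM in hdp3-2, and at 268 FPKM in Col-0 and 185 FPKM in asil1-2. It fell by 0.75 ± 0.29 and by 0.53 ± 0.25. PORC (AT1G03630) and DVR (AT5G18660), enzymes of the late pathway, fell in asil1-2 by 0.51 ± 0.24 and 0.50 ± 0.24, and had -0.44 ± 0.28 and -0.44 ± 0.28 in hdp3-2. Positive values were those of 4 genes in hdp3-2 (PORA, PORB, HEMA1 and CHLD) and of 2 in asil1-2 (PORB and CHLD). HEMA1 and CHLD had 0.08 ± 0.33 and 0.06 ± 0.29 in hdp3-2, and CHLD had 0.06 ± 0.24 in asil1-2. PORA and PORB, like PORC, reduce protochlorophyllide. PORA (AT5G54190) had the largest value of the list in hdp3-2, 0.84 ± 0.38, from 4.84 FPKM in Col-0 to 8.63 FPKM, with a q of 0.0713 in the authors' deposited table, and -0.02 ± 0.36 in asil1-2. PORB (AT4G27440) had 0.37 ± 0.32 and 0.40 ± 0.26, with a q of 0.518 and 0.176 in the authors' deposited tables. Of 14 Calvin cycle genes and 9 genes of electron carriers and the ATP synthase, Cuffdiff called 0 in either mutant. Among all tested genes 3.08% were called in hdp3-2 and 8.42% in asil1-2. At an unadjusted p under 0.05, the Calvin cycle had 1 gene in hdp3-2 and 3 in asil1-2, while the other list had 1 gene in each mutant, beside 12.9% and 20.1% of all tested genes. Calvin cycle genes had a median log2 fold change of -0.14 in hdp3-2 and -0.18 in asil1-2, and the carriers and ATP synthase had -0.04 and -0.18.

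**Figure D4:**
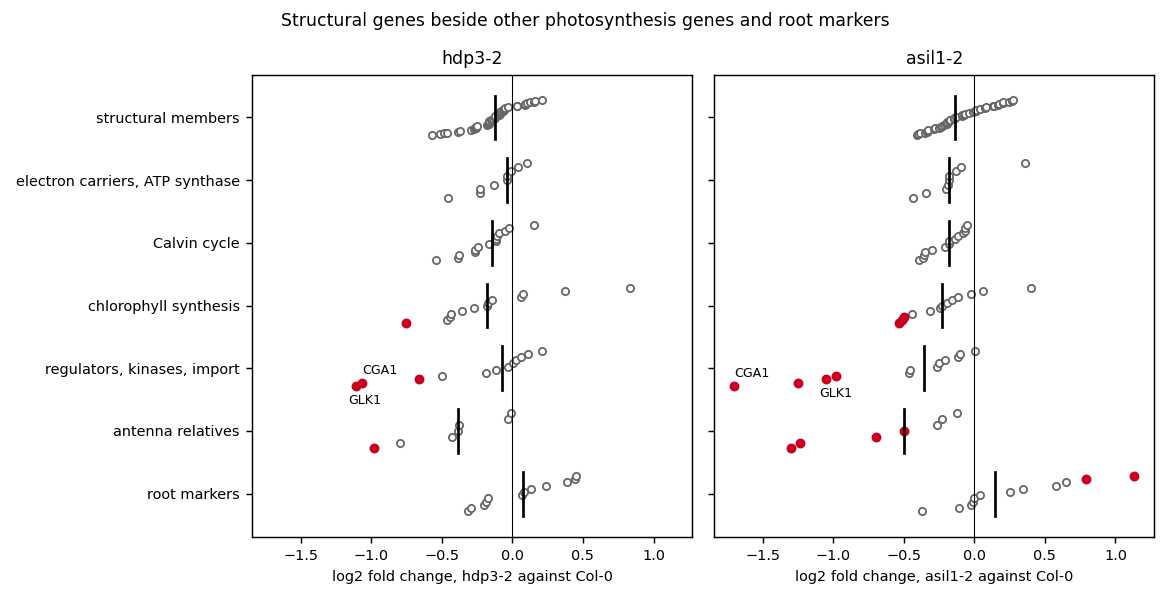
Log2 fold change of each gene against Col-0 by list (red points were called at a q under 0.05, open points were not, black bars are medians) in hdp3-2 and asil1-2. The 44 structural genes have 0 red points in either mutant, while GLK1 and CGA1 lie at -1.11 and -1.06 in hdp3-2 and at -1.05 and -1.70 in asil1-2.

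Whole seedlings also hold roots, so 12 root markers were set beside these values. In hdp3-2 0 of the 12 were called by the authors' Cuffdiff test (3.08% of all tested genes were called, and 1.3% rose), with 0 at an unadjusted p under 0.05 (12.9% of all). Their median log2 fold change was 0.07, and 7 of 12 values were positive. The summed level was 1142 FPKM in Col-0 and 968 FPKM in hdp3-2, most of it from PYK10, a glucosidase of root endoplasmic reticulum bodies, at 1002 and 820 FPKM. Without PYK10, left out after seeing the values, the other 11 markers summed to 139 FPKM in Col-0 and 148 FPKM in hdp3-2. The lowest marker was RHD6 at 1.68 FPKM in Col-0, and none was at 0. In asil1-2 2 rose (2.71% of all tested genes rose), the root hair genes RHS19 (AT5G67400, 0.79 ± 0.31) and PRP1 (AT1G54970, 1.13 ± 0.41). At an unadjusted p under 0.05 there were 5 of 12 (20.1% of all), which include EXPA7 (0.65), EXPA18 (0.58) and, with a negative value, SCR (-0.37). The median was 0.15, and 8 of 12 values were positive. The sum was 1163 FPKM in Col-0 and 1113 FPKM in asil1-2, and without PYK10 it was 142 and 167 FPKM. The part of a changed share of root in the values above was not tested. Fewer green cells and less RNA per cell cannot be told apart in whole seedlings.

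The mutants were also compared with each other by a z test on the difference of their log2 fold changes, adjusted by Benjamini-Hochberg over 19977 genes. None of the 44 members passed, where 0.13% of all genes did, and 0 members had an unadjusted p under 0.05 (1.72% of all genes). The differences, hdp3-2 minus asil1-2, ran from -0.41 for PSAG to 0.43 for PSBR, and their 95% intervals reached from -1.70 to 1.63. By complex, the median difference was 0.14 for the photosystem I antenna, with 0 of 4 genes lower in hdp3-2, and -0.18 for both the photosystem I subunits and the Rubisco small subunits. The test counts the variance of the shared Col-0 libraries more than once. It also uses the SE from the deposited statistic, which for most members is larger than an SE behind the authors' p would be. It is conservative on both counts, so it does not show that the mutants are alike in these genes.

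Other genes at 1000 FPKM or above in Col-0 are set beside the 42 members at that level. They include genes of the photosynthesis lists above, such as RCA, PETE2, ATPD, GAPA2 and CRD1, so they are not a set unrelated to photosynthesis. In asil1-2 the authors' test called 4 of the 58 other genes at this level (8.42% of all tested genes were called), and 17 had an unadjusted p under 0.05 (20.1% of all). Their median log2 fold change was -0.20, and 45 of 58 values were negative. The called genes were AT5G19190 (-0.83), CAT2 (AT4G35090, -0.58), a catalase of photorespiration, AT4G23670 (-0.54) and AT3G15450 (0.57), named after their values were seen. Cuffdiff called 0 of 56 such genes in hdp3-2 (3.08% of all tested genes were called), and 4 of these had an unadjusted p under 0.05 (12.9% of all). Their median was -0.05, with 35 of 56 values negative.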

How the data were processed

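Per the submitters' processing notes, TopHat2, Cufflinks, Cuffdiff and deepTools were used with the TAIR10 build; their versions, roles and options were not stated. The authors deposited 1 table per mutant in Cuffdiff's layout, with a single FPKM value for each genotype and its own scaling in each table. A score was deposited by the authors for each gene, the statistic of their test, and the p-value and q-value columns are the authors' own, per the file headers. The fold column was damaged by spreadsheet software, so log2 fold changes were computed from FPKM without a pseudocount. A gene was called at test status OK and a q under 0.05. All 44 members were tested in both tables, so no filter on low values removed any. The z test of the difference between mutants was run on simulated differences far larger than those of the members, with noise drawn from the same SE. That run cannot tell whether this SE is right, or how often differences as small as those of the members would be found.

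The members, gene lists and tests were chosen with earlier results of these data known. Named were called genes, the highest and lowest member of each complex in level and in fold change, and up to 4 called genes per other list; further members were named after their values were seen. Sequences came from TAIR10.1 (RefSeq), whose spans overlap those of the tables for all 23939 genes alone in their locus and match by identifier. Of the members, 8 share a locus in the tables with another gene. The tools were SciPy 1.17.1, Biopython 1.88, pandas 2.3.3, matplotlib 3.10.9 and NumPy 2.4.6 under Python 3.11.15.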

Additional observations from a re-analysis of the deposited data

How the results depend on the processing

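No member was called in either mutant under any of the 6 alternatives for the call (a q under 0.01, a 2-fold minimum, an FPKM minimum of 1 or 10, organelle genes left out, or a recomputed adjustment). The stricter q and the 2-fold minimum can only remove calls, so 0 was fixed for them. Between the mutants, 0 members differed with the summed variance multiplied by 0.5 or an FPKM minimum of 1. With the multiplier of 0.5, 125 genes in all were called, beside 26 of 19977 in the main z test. With so few calls among all genes, 0 says little about the members. Scaling each genotype to the summed FPKM of nuclear genes shifted all log2 values by -0.54 in hdp3-2 and 0.38 in asil1-2. In these sums snoRNA and miRNA genes made up 33.2% in Col-0, 56.3% in hdp3-2 and 9.74% in asil1-2. The medians then were -0.52 (LHCI), -0.71 (LHCII), -0.64 (minor antenna), -0.70 (Rubisco), -0.63 (photosystem I), -0.67 (photosystem II) and -0.66 (all) in hdp3-2, and 0.27, 0.21, 0.0503, 0.42, 0.33, 0.34 and 0.25 in asil1-2. Relative to all genes they did not move, by construction. Scaling to tested nuclear protein-coding genes, chosen after seeing the data, shifted values by 0.06 and 0.10. Lower calls among the regulators went from 3 to 2 in hdp3-2 at a q under 0.01 and with a 2-fold minimum, and from 4 to 3 in asil1-2 with a 2-fold minimum, each time without GLK2. Lower calls in chlorophyll synthesis became 0 in both mutants at a q under 0.01 and with a 2-fold minimum. Lower calls among antenna relatives became 0 (2-fold minimum) and 2 (FPKM minimum of 10) in hdp3-2, and 2 in asil1-2 at a q under 0.01 and with a 2-fold minimum. Higher root marker calls in asil1-2 became 1 at a q under 0.01, with a 2-fold minimum and with an FPKM minimum of 10. Fewer genes qualify by construction in the stricter settings; otherwise the cause was not tested. No paired analysis was possible because the tables hold 1 value per genotype, and for the same reason no library could be left out. Depth is unknown.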
